A study of Arabidopsis thaliana with 60 samples.

Results

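The 10 alpha-expansin genes EXPA1, EXPA3, EXPA4, EXPA5, EXPA6, EXPA8, EXPA10, EXPA11, EXPA15 and EXPA16 were followed across 15 stem samples of Arabidopsis thaliana. They were taken by locus identifier from the tables of reads per gene and make up 10 of 37967 named genes. All 10 passed the filter on low counts in both trials. RNA sequencing of stems had been carried out to ask how expression of GPT2, which encodes a plastid glucose 6-phosphate translocator, relates to lignin synthesis. Trial 1 held the wild type Col-0 (called Col0_1), HCT-RNAi plants, in which the lignin pathway gene HCT is silenced by RNA interference, and plants labelled as the gpt2-1 mutant. Trial 2 held another wild type set of Col-0 (Col0_2) and 35S GPT2 plants, an overexpression line that carries GPT2 behind the 35S promoter, a strong promoter active in most plant cells. The trials are read from the names of the tables, which part the wild type into these 2 sets, and Col0_2 is labelled as the control for 35S GPT2. No label places HCT-RNAi or the plants labelled gpt2-1 in a trial. They are set with Col0_1 here, and the labels do not state whether these 3 groups were grown and sequenced together. Each of the 5 groups had 3 samples, and the plants of every group grew in 0.5x Noren medium and were 9 to 10 weeks old at harvest. Replicates are called biological in the labels, without the number of plants in each or whether a line descends from 1 transformant, so p-values measure the spread between these samples.

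Expansins are secreted proteins that loosen the plant cell wall at acidic pH without cutting its polymers, which lets a cell under turgor extend. Proton pumps of the plasma membrane acidify the wall and so activate them, a sequence known as acid growth, and auxin, gibberellin and brassinosteroids act on expansin genes through their own transcription factors. In stems, alpha-expansins are known from elongating tissue and from young vascular cells, which widen before the secondary wall is laid down. Among these genes, EXPA1 is known from guard cell wall movement, EXPA5 from brassinosteroid-dependent growth, and EXPA10 from leaf growth.

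Total counts ran from 3827816 to 31713084 per sample, so that 1 count was worth between 0.0315 and 0.261 CPM (counts-per-million). HCT differed between HCT-RNAi and Col0_1 by -1.34 on the log2 scale (SE 0.05, adjusted p = 4.36e-19 by edgeR). GPT2 stood at 127 ± 3.93 CPM (SD, n = 3) in the libraries labelled gpt2-1, against 1.32 ± 0.148 CPM in Col0_1, which goes against the label of a mutant. It stood at 8.09 ± 1.86 CPM in HCT-RNAi, 265 ± 35.0 CPM in 35S GPT2 and 2.97 ± 3.33 CPM in Col0_2. In 5 of the 6 tables of trial 2 (all but 35S GPT2 sample 1) the counts followed a gene order other than that of their labels and were read in the row order of the 35S GPT2 sample 1 table. All trial 2 values rest on that reading. The vascular markers CESA4, CESA7 and CESA8, which make secondary wall cellulose, were high in every group, whereas the markers of roots, of flowers and of seeds each summed to at most 3.12 CPM in any sample.

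The genes lie on 3 chromosomes of assembly TAIR10.1, and no exon base of any of them lies under an exon of the opposite strand. EXPA1 (AT1G69530) lies at chr1:26141726-26143538 and EXPA10 (AT1G26770) at chr1:9259432-9261313, both on the plus strand. EXPA11 (AT1G20190) lies at chr1:6998335-6999839, EXPA15 (AT2G03090) at chr2:916806-918671, EXPA6 (AT2G28950) at chr2:12431338-12433796 and EXPA3 (AT2G37640) at chr2:15787523-15790139, all on the minus strand. EXPA4 (AT2G39700) at chr2:16543832-16545746, EXPA8 (AT2G40610) at chr2:16948791-16950705, EXPA5 (AT3G29030) at chr3:11011262-11013451 and EXPA16 (AT3G55500) at chr3:20574752-20576249 also lie on the minus strand. Their coding sequences of 759 to 828 bases were 60.9% to 81.1% identical over the 45 pairs, with a median of 66.7%. The closest pair was EXPA4 and EXPA16 at 81.1%, followed by EXPA1 and EXPA10 at 79.7%. The longest stretch of identical coding bases in any pair was 33 bases, and no 50-base stretch of the exons of any member was found elsewhere in the genome, so that a read which covers 50 exonic bases belongs to 1 member. The shared stretches are shown for the closest pairs and for the pair with the longest run, because they mark where reads could be confused.
EXPA4 and EXPA16: atcaacggtcaccgttacttcaacttggt
EXPA1 and EXPA10: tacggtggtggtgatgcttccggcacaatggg
EXPA10 and EXPA15: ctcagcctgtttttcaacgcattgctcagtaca

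Promoter windows are shown for EXPA8 and EXPA11, which changed furthest, for EXPA1 and EXPA10, which are close in sequence and moved apart in HCT-RNAi, and for EXPA15, which rose by more than 2-fold in HCT-RNAi. Each window runs from 250 bases before the annotated first base of the gene to 50 bases from that base on, is taken from the RefSeq assembly TAIR10.1 and is written 5′ to 3′ on the strand of the gene. Capitals mark matches on either strand. The first motif is CGTGTG, an element bound by the brassinosteroid factor BZR1. The second is an auxin response element, TGTCTC. The other motif is the TATA box, searched as TATAAA. The windows are chr2:16950656-16950955 (minus strand) for EXPA8, chr1:6999790-7000089 (minus) for EXPA11, chr1:26141476-26141775 (plus) for EXPA1, chr1:9259182-9259481 (plus) for EXPA10 and chr2:918622-918921 (minus) for EXPA15.
EXPA8: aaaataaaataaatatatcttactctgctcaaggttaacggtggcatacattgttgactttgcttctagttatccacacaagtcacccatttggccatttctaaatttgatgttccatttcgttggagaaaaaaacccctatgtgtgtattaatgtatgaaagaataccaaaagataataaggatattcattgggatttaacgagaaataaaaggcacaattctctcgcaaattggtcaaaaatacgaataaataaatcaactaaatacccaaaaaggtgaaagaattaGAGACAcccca
EXPA11: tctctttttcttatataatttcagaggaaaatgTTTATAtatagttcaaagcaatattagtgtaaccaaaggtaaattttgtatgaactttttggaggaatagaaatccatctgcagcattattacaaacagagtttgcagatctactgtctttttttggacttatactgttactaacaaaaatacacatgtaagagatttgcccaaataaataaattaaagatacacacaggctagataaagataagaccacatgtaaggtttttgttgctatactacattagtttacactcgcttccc
EXPA1: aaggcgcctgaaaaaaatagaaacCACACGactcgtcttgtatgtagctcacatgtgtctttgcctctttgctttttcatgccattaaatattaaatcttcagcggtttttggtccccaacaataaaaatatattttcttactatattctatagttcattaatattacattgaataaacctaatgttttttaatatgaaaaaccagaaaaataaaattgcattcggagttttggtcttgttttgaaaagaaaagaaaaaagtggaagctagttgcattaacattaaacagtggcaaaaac
EXPA10: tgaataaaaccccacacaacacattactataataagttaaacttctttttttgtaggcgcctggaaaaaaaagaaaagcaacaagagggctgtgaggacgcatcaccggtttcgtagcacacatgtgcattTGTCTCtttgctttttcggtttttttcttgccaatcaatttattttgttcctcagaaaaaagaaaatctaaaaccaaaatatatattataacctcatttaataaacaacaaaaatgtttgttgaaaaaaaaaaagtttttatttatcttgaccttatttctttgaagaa
EXPA15: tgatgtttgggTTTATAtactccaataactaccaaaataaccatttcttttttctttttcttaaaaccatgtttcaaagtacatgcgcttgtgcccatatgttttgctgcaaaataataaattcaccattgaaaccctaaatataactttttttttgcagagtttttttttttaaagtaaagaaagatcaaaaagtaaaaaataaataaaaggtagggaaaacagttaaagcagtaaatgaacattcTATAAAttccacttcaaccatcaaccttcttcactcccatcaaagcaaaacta

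TGTCTC was found in the windows of 4 of the 10 genes, against 14.2% of 27443 protein-coding genes. These were EXPA5, which held it at 2 places, EXPA6, EXPA8 and EXPA10; in EXPA8 it begins 39 bases after the annotated first base. CGTGTG was found in EXPA1 and EXPA6, that is in 2 of 10 windows, against 6.52%. The G-box CACGTG, to which PIF growth factors bind, was in 0 of 10 windows against 7.68%, as were CGTGCG (1.96%) and TGTCGG (5.12%), and TATAAA was in 6 of 10 against 52.1%. CACGTG and CGTGTG can overlap where they adjoin, but no match in these 10 windows overlapped another. The longest run shared by any 2 of the windows had 14 bases, ctctttgctttttc, in EXPA1 from 186 and in EXPA10 from 116 bases before the start; the median over 45 pairs was 9 bases. Such matches are a description of the letters and not of bound sites.

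Levels of different genes were set side by side as TMM-scaled CPM per kilobase of exon. In Col0_1 the order of mean levels was EXPA4 (52.0), EXPA1 (38.7), EXPA15 (23.7), EXPA6 (15.9), EXPA8 (10.3), EXPA10 (9.71), EXPA11 (7.37), EXPA5 (5.65), EXPA3 (2.31) and EXPA16 (1.86). Sample ranges of neighbours overlapped for EXPA8 and EXPA10, for EXPA11 and EXPA5 and for EXPA3 and EXPA16, and for no other neighbours in that group. EXPA4 and EXPA15 together held most of the summed level in the other 4 groups. Each stood at 57.2 CPM per kilobase in HCT-RNAi, while EXPA4 stood at 26.6 and EXPA15 at 22 in the libraries labelled gpt2-1, and at 42.6 and 50.9 in Col0_2. EXPA3 or EXPA16 was the lowest of the 10 in 4 of the groups and EXPA11 in Col0_2, where the sample ranges of neighbours overlapped from EXPA1 at 3.93 down to EXPA11 at 1.18 CPM per kilobase. In 35S GPT2 the order again began with EXPA4 at 66.4 and EXPA15 at 44.0, and ended with EXPA16 at 0.961 CPM per kilobase.

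The summed level of the 10 genes was lowest in the libraries labelled gpt2-1. It came to 167.5 ± 6.87 CPM per kilobase in Col0_1 (SD, n = 3), 190.6 ± 0.57 in HCT-RNAi and 87.0 ± 2.40 for the gpt2-1 label. EXPA15 alone rose by more than the sum did in HCT-RNAi, from 23.7 in Col0_1 to 57.2. Over the same groups EXPA1 went from 38.7 to 22.2 and EXPA8 from 10.3 to 3.24. The trial 2 sums were 132.6 ± 2.52 in Col0_2 and 180.4 ± 9.77 in 35S GPT2. No sample of 1 group reached into the range of its comparison group in any of the 3 comparisons with a wild type. In whole-stem RNA, fewer cells of a type and less RNA per cell cannot be told apart.

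**Figure D1:**
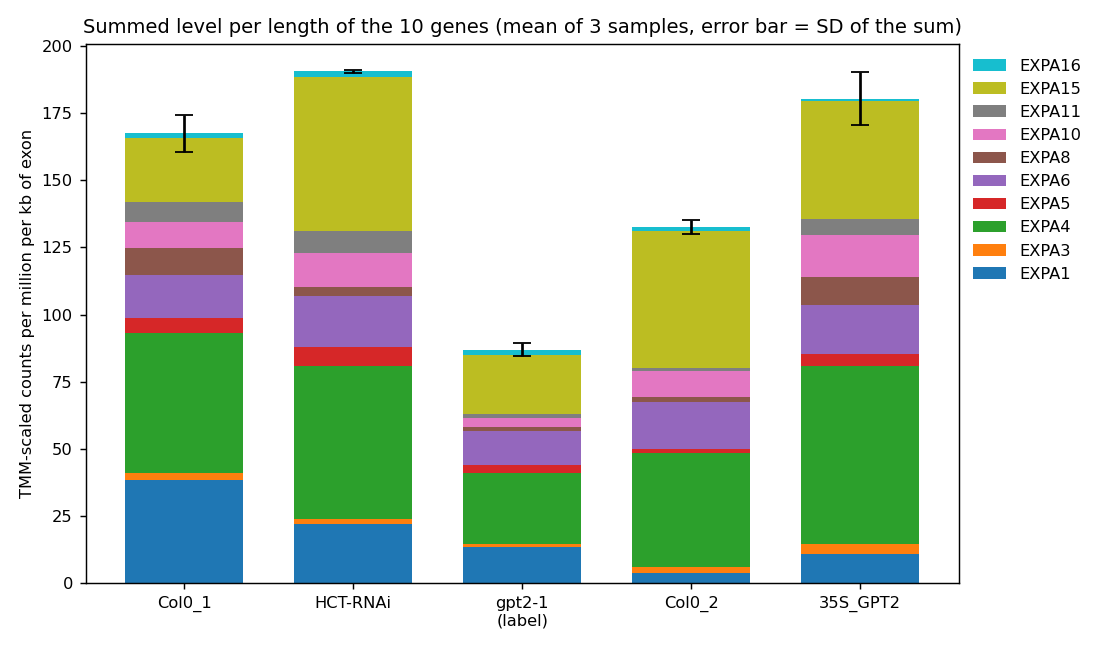
Stacked bars give the mean level of each of the 10 alpha-expansin genes in TMM-scaled counts-per-million per kilobase of exon (y axis, from 0) for the 5 groups (x axis), and black bars give the SD of the sum over 3 samples. The sum was 87.0 in the libraries labelled gpt2-1 against 167.5 in Col0_1, and 180.4 in 35S GPT2 against 132.6 in Col0_2.

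**Figure D2:**
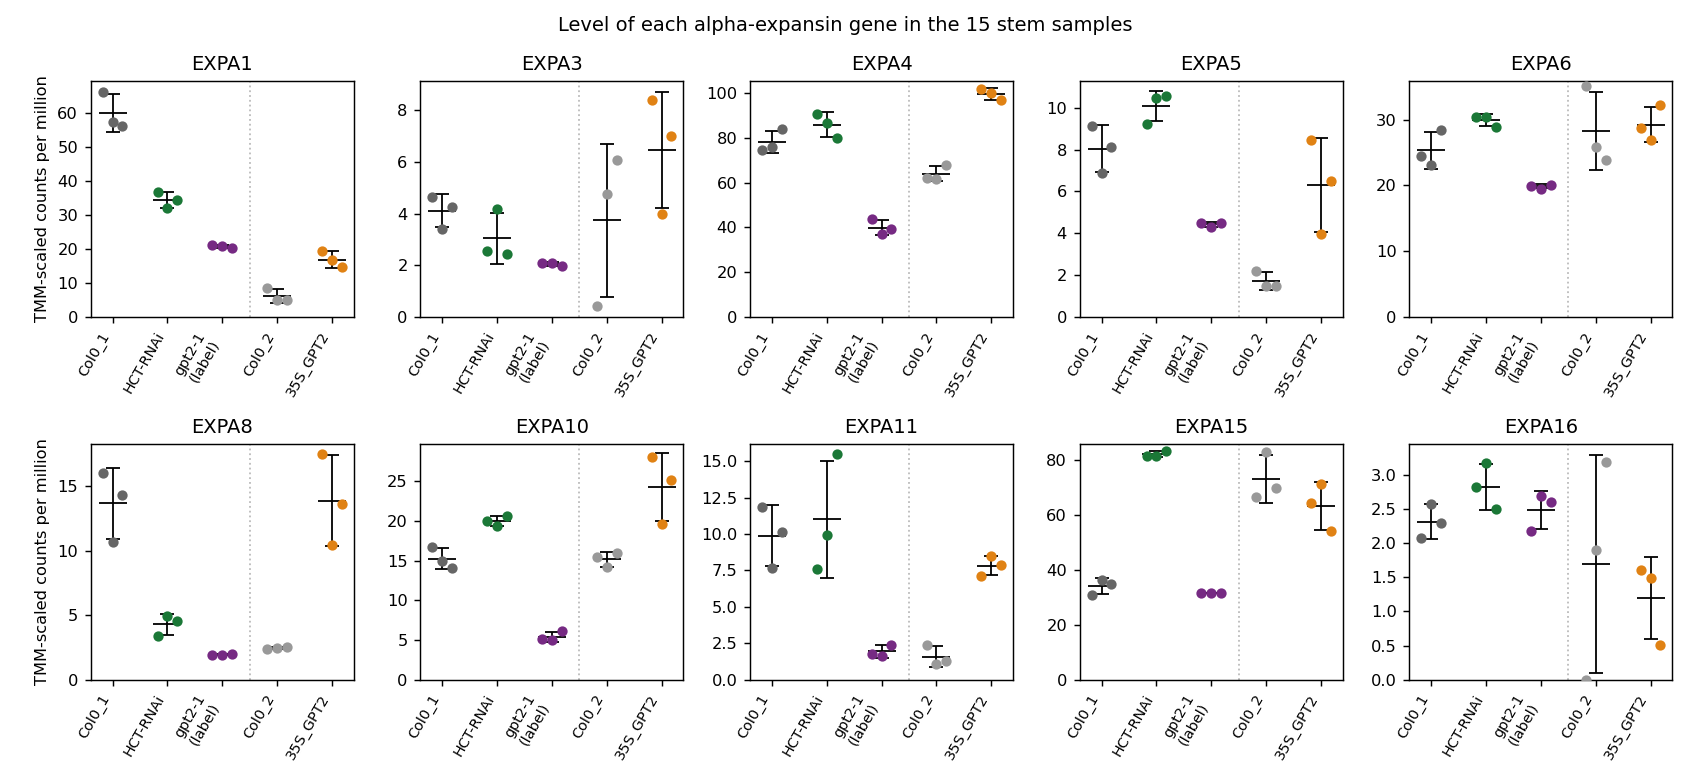
Each panel shows 1 gene, with the TMM-scaled counts-per-million of each sample as a point (y axis, linear from 0) by group (x axis), the mean as a bar and the SD as whiskers; a dotted line parts trial 1 from trial 2. The points of EXPA8 in the libraries labelled gpt2-1 lie at 1.88 to 1.96 and in 35S GPT2 at 10.4 to 17.5.

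The libraries labelled gpt2-1 were compared with Col0_1 to ask what the line changes relative to the wild type. Of the 10 alpha-expansins, 8 fell, 0 rose and 2 did not pass the test. Among all genes tested, 25.8% fell and 27.4% rose, and 53.2% passed in either direction. The median log2 fold change was -0.98 over the 10 genes and -0.01 over all genes tested. Of the 10 genes, 5 fell at least 2-fold (EXPA1, EXPA3, EXPA8, EXPA10 and EXPA11), against 2.98% of all genes tested, 0 rose as far, against 7.16%, and 8 had no overlap between the groups with the line lower, against 27.9%.

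EXPA8 fell furthest. It stood at 16.1, 10.7 and 14.3 CPM in the 3 Col0_1 samples and at 1.88, 1.92 and 1.96 CPM in the libraries labelled gpt2-1, where 37 to 40 reads were counted. The lowest wild type sample lay far above the highest of the line. Its log2 fold change was -2.82 (SE 0.17, adjusted p = 2.05e-14, edgeR quasi-likelihood test with Benjamini-Hochberg adjustment over all genes tested). EXPA11 came next, with 11.9, 7.67 and 10.2 CPM in Col0_1 and 1.78, 1.61 and 2.41 CPM in the line, again without overlap. It fell by 2.34 on the log2 scale (SE 0.24, adjusted p = 2.66e-09).

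EXPA1 was the second most abundant of the genes per length in the wild type. It stood at 66.2, 57.3 and 56.0 CPM in Col0_1 and at 21.0, 20.9 and 20.2 CPM in the line. The 3 libraries of the line lay within 1 CPM of each other and far below all wild type samples, with a log2 fold change of -1.53 (SE 0.07, adjusted p = 1.66e-17). EXPA10 stood at 16.7, 15.02 and 14.0 CPM against 5.14, 4.98 and 6.14 CPM. It fell by 1.497 on the log2 scale (SE 0.10, adjusted p = 2.03e-13), and its groups did not overlap.

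EXPA4, the most abundant per length in Col0_1, fell from 74.5, 75.9 and 83.8 CPM to 43.6, 36.9 and 39.2 CPM. All 3 libraries of the line were below the wild type range, and the log2 fold change was -0.96 (SE 0.06, adjusted p = 8.19e-14). The low EXPA3 stood at 4.66, 3.42 and 4.27 CPM against 2.08, 2.08 and 1.96 CPM (log2 fold change -1.01, SE 0.20, adjusted p = 0.000108). EXPA5 stood at 9.15, 6.87 and 8.14 CPM against 4.50, 4.31 and 4.47 CPM (log2 fold change -0.86, SE 0.12, adjusted p = 1.01e-06). EXPA6 fell least of the 8, from 24.5, 23.1 and 28.5 CPM to 19.9, 19.5 and 20.1 CPM, still without overlap (log2 fold change -0.34, SE 0.07, adjusted p = 0.000194).

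EXPA15 and EXPA16 did not pass the test. EXPA15 stood at 30.7, 36.4 and 34.9 CPM in Col0_1 and at 31.6, 31.5 and 31.4 CPM in the line, inside the wild type range (log2 fold change -0.11, SE 0.06, adjusted p = 0.125). EXPA16 stood at 2.08, 2.58 and 2.303 CPM against 2.18, 2.70 and 2.60 CPM, with ranges that overlapped (log2 fold change 0.10, SE 0.18, adjusted p = 0.683). Scaling by library totals alone in place of TMM moved the median of all genes in this comparison by -0.22 (log2). On that scale EXPA15 was called lower (-0.33, adjusted p = 1.64e-05) and EXPA16 changed sign (-0.13, adjusted p = 0.556). EXPA15 was also called lower without Col0_1 sample 1 (-0.18, adjusted p = 0.0126).

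**Figure D3:**
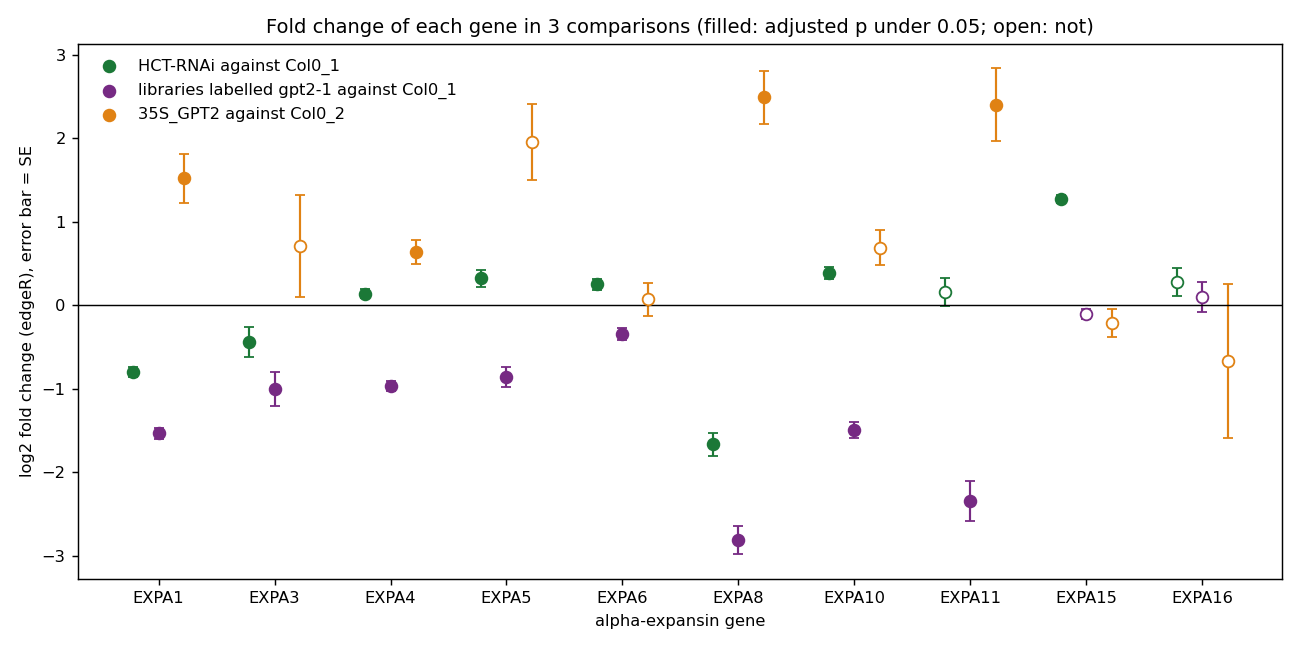
Points give the log2 fold change of each gene (x axis) in 3 comparisons with the wild type of the same trial (y axis, edgeR), with the SE as bars; filled points have an adjusted p under 0.05 and open points do not. EXPA8 lies at -2.82 in the libraries labelled gpt2-1, -1.67 in HCT-RNAi and 2.49 in 35S GPT2.

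HCT-RNAi was compared with Col0_1 to ask how silencing of HCT changes the stem transcriptome. The alpha-expansins moved in both directions: 5 rose, 3 fell and 2 did not pass the test, while 55.7% of all genes tested passed, 29.2% of all genes higher and 26.5% lower. The median log2 fold change was 0.20 over the 10 genes and 0.00 over all genes tested. A change of at least 2-fold was seen in EXPA15, which rose, and in EXPA8, which fell. Of all genes tested, 7.43% rose and 2.83% fell by that much. The shares of all genes in this comparison include genes under opposite-strand exons, which are undercounted in Col0_1. Among the genes left without such exons, 7392 were called, against 11167 of all genes tested. That fit held fewer genes, so these 2 counts do not give a change in the share called.

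EXPA15 stood at 81.5, 81.4 and 83.2 CPM in HCT-RNAi against 30.7, 36.4 and 34.9 CPM in Col0_1. The lowest HCT-RNAi sample was more than 2-fold above the highest wild type sample, and the log2 fold change was 1.27 (SE 0.05, adjusted p = 7.77e-18, edgeR). EXPA8 stood at 3.37, 4.96 and 4.55 CPM, below every wild type sample, and fell by 1.67 on the log2 scale (SE 0.14, adjusted p = 2.67e-11). EXPA1 stood at 36.6, 32.0 and 34.4 CPM, also below every wild type sample, and fell by 0.80 (SE 0.06, adjusted p = 4.82e-12).

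EXPA10, the closest relative of EXPA1 among the 10 genes, moved the other way. It stood at 19.98, 19.4 and 20.7 CPM in HCT-RNAi, above all wild type samples, with a log2 fold change of 0.39 (SE 0.08, adjusted p = 0.000101). EXPA6 stood at 30.4, 30.5 and 28.9 CPM (log2 fold change 0.25, SE 0.07, adjusted p = 0.00187), and EXPA5 at 9.24, 10.5 and 10.6 CPM (0.32, SE 0.10, adjusted p = 0.00851). Both lay just above the highest wild type sample.

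The remaining calls were small. EXPA4 stood at 90.8, 86.8 and 79.7 CPM, a range that overlapped that of the wild type (log2 fold change 0.14, SE 0.06, adjusted p = 0.0342). EXPA3 stood at 2.53, 4.17 and 2.43 CPM, with sample 2 inside the wild type range (log2 fold change -0.44, SE 0.18, adjusted p = 0.0355). EXPA11 stood at 7.59, 9.96 and 15.5 CPM, so that its samples lay below, inside and above the wild type range (0.16, SE 0.17, adjusted p = 0.438), and EXPA16 at 2.82, 3.18 and 2.51 CPM (0.28, SE 0.17, adjusted p = 0.159). In sample ranges, 4 of the 10 genes were higher without overlap and 2 lower, against 31.4% and 29.1% of all genes tested.

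Several of these calls rested on single libraries. EXPA3 was not called without Col0_1 sample 1 (adjusted p = 0.182), Col0_1 sample 3 (0.0661), HCT-RNAi sample 1 (0.172) or HCT-RNAi sample 3 (0.186). EXPA4 was not called without Col0_1 sample 1 (adjusted p = 0.166), Col0_1 sample 2 (0.0978), HCT-RNAi sample 1 (0.1999) or HCT-RNAi sample 2 (0.0879), and EXPA5 not without Col0_1 sample 2 (0.0974), which left 3 genes higher. EXPA11 was called higher without HCT-RNAi sample 1 (log2 fold change 0.37, adjusted p = 0.0447). DESeq2 called neither EXPA3 (adjusted p = 0.072) nor EXPA4 (0.0878). By edgeR, EXPA3 was not called over genes without opposite-strand exons (adjusted p = 0.0595) or with only the 2 groups compared (0.0514). With library totals, edgeR did not call EXPA4 (adjusted p = 0.0567).

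The 2 lines of trial 1 were also set against each other. In HCT-RNAi, 9 of the 10 genes were higher than in the libraries labelled gpt2-1 and 0 were lower, while 68.2% of all genes tested were called, 35.3% higher and 32.8% lower. The same 9 had no overlap, against 37.3% of all genes higher and 34.3% lower without overlap. Of the members, 6 were at least 2-fold higher, against 10.4% of all genes higher and 9.22% lower by that much. These shares include genes under opposite-strand exons, which are undercounted in the libraries labelled gpt2-1. Among the genes left without such exons, 9545 were called, against 13674 of all genes tested. The smaller number of genes in that fit keeps the counts from being read as shares. The 9 log2 differences ran from 0.56 in EXPA3 (SE 0.21, adjusted p = 0.0171) to 2.503 in EXPA11 (SE 0.23, adjusted p = 2.15e-10). EXPA10 was higher by 1.88 (SE 0.09) and EXPA15 by 1.38 (SE 0.05). EXPA16 did not pass the test (0.18, SE 0.17, adjusted p = 0.344). Without HCT-RNAi sample 2 EXPA3 was not called (0.28, adjusted p = 0.221), nor without gpt2-1 sample 3 (0.54, adjusted p = 0.052).

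35S GPT2 was compared with Col0_2 to ask what overexpression of GPT2 changes. Of the 10 alpha-expansins, 4 rose (EXPA1, EXPA4, EXPA8 and EXPA11), 0 fell and 6 did not pass the test, whereas 1.4% of all genes tested rose, 1.11% fell and 2.52% passed in either direction. The median log2 fold change was 0.70 over the 10 genes and 0.02 over all genes tested. EXPA1, EXPA8 and EXPA11 rose at least 2-fold, against 0.822% of all genes tested, and 0 fell as far, against 0.828%. In 6 of the 10 genes every 35S GPT2 sample was higher than every Col0_2 sample, against 11.8% of all genes tested, and 0 were the reverse, against 9.59%.

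EXPA8 stood at 2.41, 2.47 and 2.53 CPM in Col0_2 and at 17.5, 10.4 and 13.6 CPM in 35S GPT2. Every sample of the line was several times above the wild type, and the log2 fold change was 2.49 (SE 0.32, adjusted p = 0.0029, edgeR), or 5.62-fold. EXPA11 stood at 2.41, 1.08 and 1.26 CPM against 7.14, 8.46 and 7.85 CPM and rose by 2.40 (SE 0.44, adjusted p = 0.0166). Its groups did not overlap either.

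EXPA1 stood at 8.42, 4.99 and 4.83 CPM in Col0_2 and at 19.3, 16.7 and 14.5 CPM in 35S GPT2, without overlap (log2 fold change 1.52, SE 0.29, adjusted p = 0.0218). EXPA4 rose from 62.2, 61.8 and 68.0 CPM to 101.8, 100.1 and 96.9 CPM (log2 fold change 0.64, SE 0.14, adjusted p = 0.0413). Its samples lay close together in both groups and well apart between them.

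EXPA5 and EXPA10 were higher in every 35S GPT2 sample and yet did not pass the test. EXPA5 stood at 2.21, 1.45 and 1.48 CPM against 8.48, 3.98 and 6.499 CPM (log2 fold change 1.95, SE 0.45, adjusted p = 0.0512). With the sample number as a block, which pairs the samples of this trial, EXPA5 was called higher (1.86, adjusted p = 0.0497), as it was by DESeq2 (1.96, adjusted p = 0.00334), with no filter on low counts (adjusted p = 0.0303) and over genes without opposite-strand exons (0.0495). EXPA10 stood at 15.4, 14.2 and 15.9 CPM against 28.0, 19.7 and 25.2 CPM (log2 fold change 0.69, SE 0.21, adjusted p = 0.138).

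In the other 4 genes the groups overlapped. EXPA15 stood at 66.4, 82.9 and 69.8 CPM against 64.3, 71.2 and 53.9 CPM (log2 fold change -0.22, SE 0.17, adjusted p = 0.64), and EXPA6 at 35.1, 25.9 and 23.8 CPM against 28.7, 26.9 and 32.2 CPM (0.07, SE 0.20, adjusted p = 0.921). EXPA3 and EXPA16 had 2 and 0 counts in Col0_2 sample 1. There 0 counts allow up to 0.571 CPM, for counting error only, which lies below the other Col0_2 samples of EXPA16. EXPA3 stood at 0.401, 4.74 and 6.06 CPM against 8.39, 3.98 and 7.005 CPM (log2 fold change 0.71, SE 0.61, adjusted p = 0.681), and EXPA16 at 0, 1.90 and 3.19 CPM against 1.61, 1.49 and 0.506 CPM (-0.67, SE 0.92, adjusted p = 0.808). Col0_2 sample 1 was the lowest of its group in both. Without it neither gene was called (EXPA3 0.30, adjusted p = 0.748; EXPA16 -1.18, adjusted p = 0.308).

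EXPA8 kept its call whichever of the 6 libraries was left out, with log2 fold changes of 2.27 to 2.65, while the count of called members fell from 4 to 1 without any library other than Col0_2 sample 1. EXPA1 lost its call without Col0_2 sample 2 (adjusted p = 0.0853), Col0_2 sample 3 (0.0969) and 35S GPT2 samples 1 (0.17), 2 (0.0657) and 3 (0.0639), and EXPA11 without the same libraries in that order (0.0692, 0.0806, 0.115, 0.0692 and 0.0982). EXPA4 lost its call without any of the 6, at adjusted p of 0.0619 without Col0_2 sample 1, 0.176 without sample 2 and 0.114 without sample 3, and of 0.229, 0.0979 and 0.138 without 35S GPT2 samples 1, 2 and 3. With all 6 libraries scaled by library totals, edgeR did not call EXPA4 either (0.61, adjusted p = 0.0642). EXPA5 was called without Col0_2 sample 1 (2.14, adjusted p = 0.00888), so that 4 members rose in that fit. EXPA1, EXPA4, EXPA8 and EXPA11 were higher in all 6 fits. With the gene labels of the 5 tables as deposited, only 5 of the 10 genes were tested and 0 were called, and EXPA8 stood at -0.80 (adjusted p = 0.9997).

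The effects in the GPT2 lines were set against each other in 1 fit of all 15 samples, each line against the wild type of its own trial. The test asks whether the effects differ and not whether their signs are opposite. The effect of 35S GPT2 was higher than that of the libraries labelled gpt2-1 in 6 of the 10 genes and lower in 0, against 22.3% of all genes called in either direction, 9.32% higher and 13% lower. All 6 differed by at least 2-fold, against 4.87% of all genes higher and 6.55% lower by that much. Of these 6, EXPA1, EXPA4, EXPA8 and EXPA11 were called lower in the libraries labelled gpt2-1 and higher in 35S GPT2. EXPA5 and EXPA10 were called lower in the former and were not called in the latter. GPT2 itself was high in both lines. The difference was largest in EXPA8, at 5.28 on the log2 scale (SE 0.33, adjusted p = 3.02e-08), followed by EXPA11 at 4.80 (SE 0.44, adjusted p = 7.15e-07). EXPA1 differed by 3.09 (SE 0.22), EXPA5 by 2.88 (SE 0.33), EXPA10 by 2.15 (SE 0.20) and EXPA4 by 1.55 (SE 0.13), with adjusted p of 7.03e-06 or less. EXPA3 (1.60, adjusted p = 0.0622), EXPA6 (0.40, 0.138), EXPA15 (-0.17, 0.493) and EXPA16 (-1.04, 0.33) did not pass. Without Col0_2 sample 1, EXPA3 (1.30, adjusted p = 0.0124), EXPA6 (0.56, 0.00818) and EXPA16 (-1.38, 0.0261) were called as well, and EXPA3 also without Col0_2 sample 3 (2.07, 0.0228) and 35S GPT2 sample 2 (1.78, 0.0387). With all libraries, EXPA3 was called by DESeq2 (1.67, adjusted p = 0.0443), with library totals (1.82, 0.0401) and with no filter (1.61, 0.0406), and EXPA6 with library totals (0.63, 0.0154).

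The same test against HCT-RNAi gave a higher effect of 35S GPT2 in 5 genes and a lower effect in 1, against 19.6% of all genes called, 7.67% higher and 12% lower. By at least 2-fold, 4 were higher and 1 lower, against 3.45% and 7.69% of all genes. These shares, too, include genes under opposite-strand exons, which are undercounted in Col0_1. Among the genes left without such exons, 2180 were called, against 4054 of all genes tested. These counts, too, come from different numbers of genes and are not shares. EXPA8 differed by 4.18 (SE 0.31), EXPA1 by 2.42 (SE 0.22), EXPA11 by 2.35 (SE 0.42), EXPA5 by 1.75 (SE 0.32) and EXPA4 by 0.50 (SE 0.13), with adjusted p of 0.00942 or less. EXPA15 differed the other way by -1.49 (SE 0.15, adjusted p = 1.32e-06). EXPA3, EXPA6, EXPA10 and EXPA16 did not pass. EXPA4 lost its call without Col0_1 sample 3 (adjusted p = 0.0689, edgeR), without HCT-RNAi sample 3 (0.0727) and with no filter on low counts (0.0507). EXPA16 was called without Col0_2 sample 1 (-1.56, adjusted p = 0.0127). Both tests set lines of different trials against each other, and the trial, its growth and its sequencing cannot be told apart from the line beyond what each wild type set takes out.

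**Figure D4:**
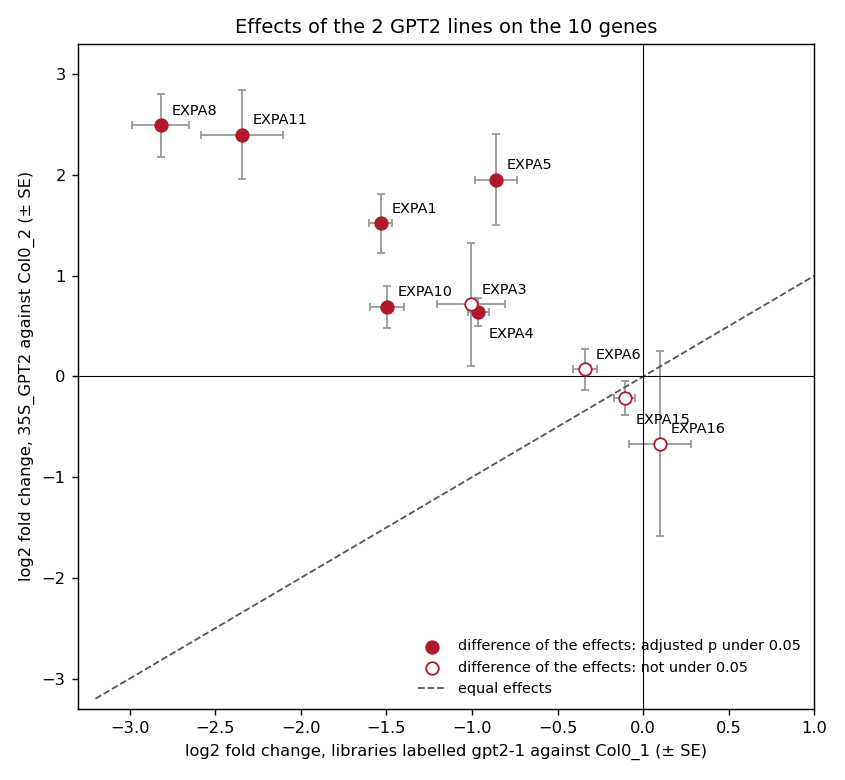
Each point is 1 gene, with its log2 fold change in the libraries labelled gpt2-1 against Col0_1 (x axis) and in 35S GPT2 against Col0_2 (y axis), SE bars, and a dashed line of equal effects; filled points differed between the lines at an adjusted p under 0.05. EXPA8 lies at -2.82 and 2.49, while EXPA15 lies near the line of equal effects at -0.11 and -0.22.

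The wild type sets themselves stood at different levels, which is given as a description across trials with no test. Levels were scaled by TMM separately in each trial, so the sets share no common scaling. In 5 of the 10 genes every Col0_1 sample was above every Col0_2 sample and in 1 below. Of 20645 genes, 28.4% and 36.5% were so, genes under opposite-strand exons included, which are undercounted in Col0_1. EXPA1 stood at 59.9 ± 5.54 CPM in Col0_1 and 6.08 ± 2.03 CPM in Col0_2 (SD, n = 3), a ratio of 9.84. The ratio was 6.26 in EXPA11, 5.54 in EXPA8, 4.7 in EXPA5 and 1.22 in EXPA4, the other genes of the 5. EXPA15 was the reverse, 2.15-fold higher in Col0_2 without overlap, and EXPA3, EXPA6, EXPA10 and EXPA16 overlapped. The levels of EXPA8 in 35S GPT2 (10.4 to 17.5 CPM) overlapped those of Col0_1 (10.7 to 16.1 CPM), and those of the libraries labelled gpt2-1 (1.88 to 1.96 CPM) lay below those of Col0_2 (2.41 to 2.53 CPM). Genes of the daily clock also stood apart between the sets: CCA1 at 97.4 ± 4.01 CPM in Col0_1 and 13.8 ± 5.83 CPM in Col0_2, and LHY at 32.9 ± 0.258 and 0.839 ± 0.383 CPM. The hour of harvest is not given in the sources used here, and its part in the expansin levels was not tested.

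In the libraries labelled gpt2-1, both tested beta-expansins of 6 fell, 3 of 4 expansin-like genes rose and no other tested alpha-expansin passed. Among all genes tested, 25.8% fell and 27.4% rose in that line, and 26.5% fell and 29.2% rose in HCT-RNAi. The classes were not tested against each other. Of 15 further alpha-expansin genes only 5 were tested in trial 1, and in that line 0 of 5 rose and 0 fell at an adjusted p under 0.05; EXPA13 stood at 11.1 ± 1.16 CPM against 10.5 ± 0.23 CPM in Col0_1. In HCT-RNAi 3 of the 5 were called higher and 2 lower, among the latter EXPA17 (-1.19, SE 0.16, adjusted p = 3.78e-07) and EXPA9 (-0.51, SE 0.09, adjusted p = 3.02e-05). EXPA20, among those called higher, is left without a value because 86.3% of its exon bases lie under an exon of the opposite strand. In 35S GPT2 0 of the 4 tested passed by edgeR (1 were higher and 0 lower at an unadjusted p under 0.05). Both tested beta-expansins, a related wall-loosening class, fell in the libraries labelled gpt2-1 (EXPB1 -1.21, SE 0.23, adjusted p = 6.16e-05; EXPB3 -0.51, SE 0.06, adjusted p = 1.31e-07) and rose in HCT-RNAi (EXPB3 0.63, SE 0.06, adjusted p = 1.84e-10; EXPB1 0.55, SE 0.17, adjusted p = 0.0084). EXPB3 stood at 63.1 ± 7.81 CPM in 35S GPT2 against 90.1 ± 17.2 CPM in Col0_2 and did not pass there (adjusted p = 0.231).

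The expansin-like genes share the fold of expansins, and their activity on walls is not established. Of 4 tested, 3 rose and 0 fell in the libraries labelled gpt2-1, against 27.4% and 25.8% of all genes tested. By edgeR, EXLA2 rose by 1.67 (SE 0.06, adjusted p = 4.04e-19), EXLA1 by 1.19 (SE 0.04, adjusted p = 2.42e-19) and EXLA3 by 0.88 (SE 0.05, adjusted p = 4.64e-15). The same 3 rose in HCT-RNAi, EXLA2 by 1.68 (SE 0.06), EXLA1 by 0.60 (SE 0.04) and EXLA3 by 0.53 (SE 0.05), while EXLB1 fell by 1.26 (SE 0.18, adjusted p = 9.97e-07). In 35S GPT2 0 of the 4 passed by edgeR (0 were higher and 0 lower at an unadjusted p under 0.05), with log2 fold changes of -0.19 to -0.95. Their summed level was 313 ± 8.66 CPM in Col0_1, 494 ± 18.3 in HCT-RNAi and 693 ± 23.0 in the libraries labelled gpt2-1, and 37.9 ± 3.39 in Col0_2 and 29.7 ± 2.06 in 35S GPT2. In the difference between 35S GPT2 and the libraries labelled gpt2-1, the same 3 EXLA genes were lower (EXLA2 by -2.26, SE 0.23, adjusted p = 2.75e-06). Both comparisons of trial 1 share the Col0_1 samples.

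**Figure D5:**
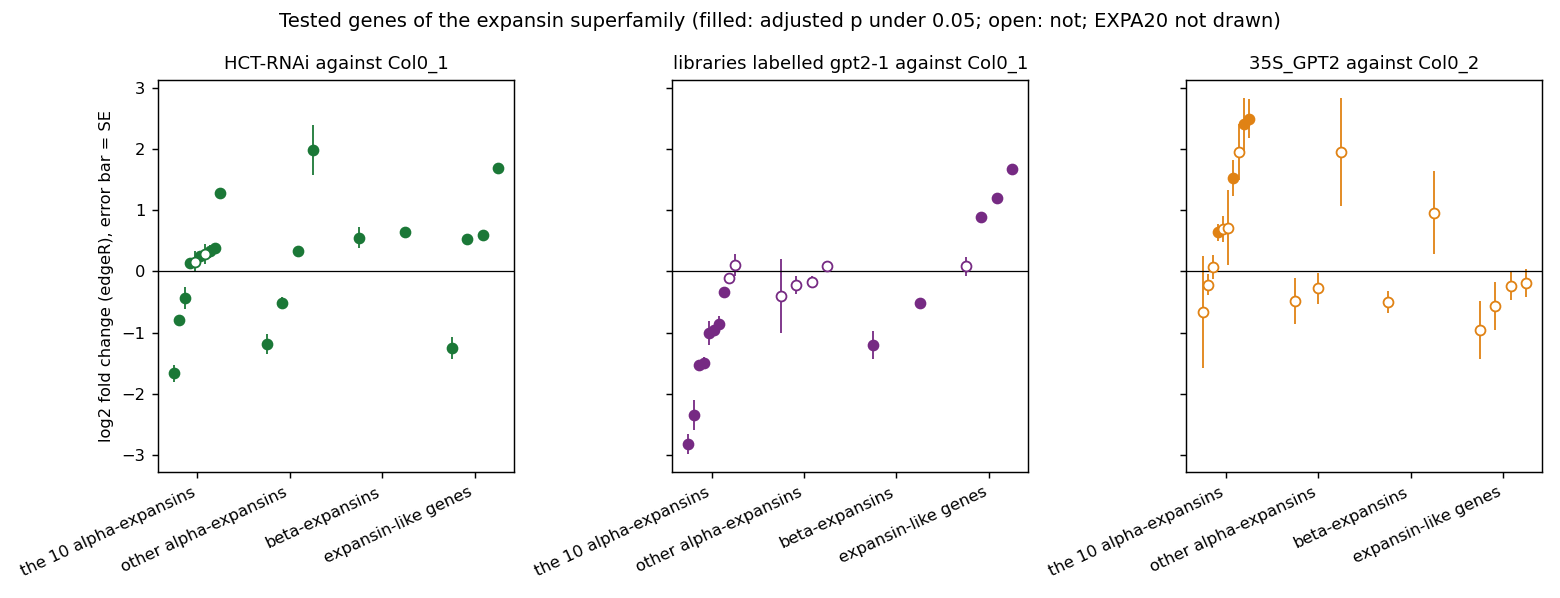
Each point is a tested gene of the expansin superfamily, with its log2 fold change (y axis, edgeR) and SE, grouped by class (x axis) in 3 panels for the 3 comparisons with a wild type; filled points have an adjusted p under 0.05, and EXPA20 is not drawn. In the libraries labelled gpt2-1, 8 of the 10 alpha-expansins are filled and below 0, and 3 of the 4 expansin-like genes are filled and above 0.

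Acid growth depends on proton pumps (AHA genes), on PP2C-D phosphatases that switch the pumps off and on SAUR proteins that inhibit those phosphatases. Of 11 such genes, 7 were tested in trial 1; in the libraries labelled gpt2-1 1 rose (AHA2, 0.28, SE 0.05, adjusted p = 3.89e-05) and 5 fell, led by PP2C-D1 (-1.52, SE 0.26, adjusted p = 1.37e-05) and SAUR24 (-1.05, SE 0.22, adjusted p = 0.000217). In HCT-RNAi 2 rose and 3 fell, led by PP2C-D1 (-0.92, SE 0.22, adjusted p = 0.000954). In 35S GPT2 0 of 8 passed by edgeR, and 3 were higher and 1 lower at an unadjusted p under 0.05. In the difference between 35S GPT2 and the libraries labelled gpt2-1, 6 of 10 tested were higher, 5 of them SAUR genes at 0 to 84 counts per sample and PP2C-D1, and AHA1 (-0.67, SE 0.15, adjusted p = 0.0029) and AHA2 (-0.66, SE 0.16, adjusted p = 0.00515) were lower. SAUR20, SAUR21 and SAUR22 did not pass the filter on low counts in trial 1, nor did PP2C-D1 and SAUR22 in trial 2. For these genes the difference takes in a comparison that could not be tested alone. Genes of the SAUR19 group are close copies of each other, and their counts depend on how shared reads were assigned.

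Of 16 growth regulators, 15 were tested in trial 1 and most calls were lower. In the libraries labelled gpt2-1 2 rose and 9 fell; the furthest falls were those of PRE1 (-2.48, SE 0.32, adjusted p = 1.88e-07) and PRE6 (-2.13, SE 0.30, adjusted p = 8.83e-07), HLH proteins that promote elongation. The smallest adjusted p belonged to HBI1, a growth-promoting bHLH factor (-0.66, SE 0.06, adjusted p = 7.31e-11), GAI, a DELLA repressor of growth (-1.21, SE 0.11, adjusted p = 1.03e-10), and RGA, another DELLA (-0.34, SE 0.04, adjusted p = 1.17e-07). In HCT-RNAi 2 rose, PIF3 and BZR1, and 11 fell, with the smallest adjusted p in RGA (-0.50, SE 0.04, adjusted p = 5.41e-11) and IBH1, an inhibitor of elongation (-0.53, SE 0.05, adjusted p = 8.28e-11). Promoters and repressors of growth thus fell side by side in both. In BZR1, an exon on the opposite strand covers 26.1% of the exon bases, where counts depend on the strand setting, and its change is given without a value. In 35S GPT2 0 of 13 passed by edgeR, and 1 were higher and 4 lower at an unadjusted p under 0.05.

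Vessel and fibre markers fell in the libraries labelled gpt2-1, and some of them rose in 35S GPT2. All 5 vessel and fibre markers fell in the libraries labelled gpt2-1, led by XCP1 (-0.91, SE 0.06, adjusted p = 9.65e-14), a protease of vessel cell death, and their summed level was 2666 to 2837 CPM against 3222 to 3537 CPM in Col0_1. In 35S GPT2 2 of the 5 rose, XCP2 (1.14, SE 0.16, adjusted p = 0.00502) and XCP1 (1.33, SE 0.28, adjusted p = 0.0334), with a sum of 3006 to 4317 CPM against 2015 to 2295 CPM in Col0_2. In HCT-RNAi 1 rose and 4 fell (2767 to 2964 CPM). Of the exon bases of CESA8, 16.8% lie under an exon of the opposite strand. All 5 had a higher effect in 35S GPT2 than in the libraries labelled gpt2-1.

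Of 4 cambium markers all fell in the libraries labelled gpt2-1 (sum 134 to 153 CPM against 207 to 215.5 CPM), 3 rose in HCT-RNAi (243 to 270 CPM) and none passed in 35S GPT2 (236 to 265 CPM against 226 to 265 CPM). Of 6 epidermis markers 1 rose and 3 fell in the libraries labelled gpt2-1 (576 to 626 CPM against 980 to 1012 CPM), 2 rose and 4 fell in HCT-RNAi (642 to 670 CPM), and LTP1 alone of 5 tested passed in 35S GPT2, higher by 1.91 with an adjusted p of 0.00658 (888 to 1016 CPM against 1016 to 1206 CPM). Of 3 phloem markers 2 fell in the libraries labelled gpt2-1 and 1 in HCT-RNAi, and of 3 photosynthetic markers 2 fell in the former while 2 rose and 1 fell in the latter; none passed in 35S GPT2. The part of cell makeup in the expansin results was not tested.

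EXPA1 and EXPA11 were among the 6 genes closest in response to EXPA8, while the other ranked alpha-expansins lay at ranks 64 (EXPA5) to 9621 (EXPA15). EXPA11 did not follow EXPA8 in HCT-RNAi, where their log2 fold changes were 0.159 and -1.67. Likeness was ranked over 10462 genes of at least 5 CPM on average, tested in all 3 comparisons and without opposite-strand exon overlap. It was measured as the root mean square difference of the 3 log2 fold changes against a wild type, 2 of which share Col0_1. The nearest to EXPA8, the gene with the largest change, were AT5G44680 (0.839), TPPB, a trehalose phosphate phosphatase (0.931), MYB61, a MYB factor (0.988), AT5G24580 (1.02) and EXPA1 (1.06), with EXPA11 at rank 6 (1.09). The nearest to EXPA4, the most abundant per length, were much closer, from AT5G66310 (0.0638), AT1G53040 (0.0697), LBD11 (0.073) and PLA2-ALPHA (0.0762) to LAC5, a laccase (0.114). EXPA10 was at rank 229 from EXPA4 (0.34) and EXPA6 at rank 1135. The other ranked members lay at ranks 6300 (EXPA5) to 10394 (EXPA8) from EXPA4. EXPA3 and EXPA16 were below the level needed to be ranked.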

How the data were processed

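RNA-seq of stems was deposited as 1 table of read counts per gene for each of 15 samples, each shared by 4 of 60 sequencing records. The deposited values are raw counts made by the authors; the submitters' processing notes name STAR, DESeq2 and TAIR10, with no role given, and no source used here states the counting tool, annotation release or strand setting. Each table holds 38186 rows, of which 37967 name a gene. The 219 rows with no name held 0.000322% to 0.00117% of counts. They are part of the total counts given above and were left out of all levels and tests. In 5 tables of trial 2 the labels did not follow the counts: their rank correlation with Col0_1 sample 1 was 0.0971 to 0.108 as deposited and 0.884 to 0.925 once the counts were read in the row order of the 35S GPT2 sample 1 table, which differs at 38127 rows; this order was used. The row labelled GPT2 in the Col0_2 tables held the Col0_1 counts (34, 29 and 25), so the gene at that place in the order used, AT1G64190, was left out of trial 2 fits.

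Counts were tested with edgeR 4.0.16 (quasi-likelihood, TMM scaling, filterByExpr with a minimum count of 10 and a minimum total of 15) in R 4.3.3, over 20053 genes in trial 1, 18364 in trial 2 and 20645 in the fit of all 15 samples. P-values were adjusted by Benjamini-Hochberg over all genes tested, and a call needs an adjusted p under 0.05. Levels are CPM (counts-per-million) scaled by TMM within each trial, with kilobases of exon from TAIR10.1. DESeq2 1.42.0, RLE scaling, library totals, no filter, a replicate block, fits of 2 groups, genes without exons on the opposite strand, labels as deposited and leaving out each sample were the alternatives. The scripts were tested on simulated data. The library kit keeps strand.

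The 15 replicate pairs differed by more than counting noise, with a chi-square per degree of freedom of 1.95 to 33.4. In trial 2, deviations of samples with the same number were weakly correlated (r = 0.103, 0.282 and 0.142 across genes). Samples of different number reached at most 0.0662. The replicate block treats the numbers as pairs, a pairing that the labels do not state and that was not tested. The main fit of trial 2 used no block. Intervals and floors cover counting error only. The 10 genes, the other lists and the comparisons were chosen with earlier results of these data known. Genes named outside the 10 were up to 3 called members of each list with the smallest p, and others (EXPA13, PIF3, BZR1, PRE1, PRE6, EXPB3 in 35S GPT2, AHA1, AHA2, CCA1, LHY, PRR5) were chosen after their values were seen.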

Additional observations from a re-analysis of the deposited data

Results flagged for a closer look

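The effect of 35S GPT2 on 6 alpha-expansins differed from that of the libraries labelled gpt2-1 by a test of the difference itself (edgeR, 1 fit of 15 samples, with adjusted p of 7.03e-06 or less). The differences were 3.09 in EXPA1, 1.55 in EXPA4, 2.88 in EXPA5, 5.28 in EXPA8, 2.15 in EXPA10 and 4.80 in EXPA11 on the log2 scale, all with the higher effect in 35S GPT2.

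Against HCT-RNAi, the effect of 35S GPT2 differed by 2.42 in EXPA1, 0.50 in EXPA4, 1.75 in EXPA5, 4.18 in EXPA8, 2.35 in EXPA11 and -1.49 in EXPA15 (adjusted p of 0.00942 or less). EXPA15 was the gene whose effect was lower in 35S GPT2. In these comparisons the lines come from different trials.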

How the results depend on the processing

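The counts of members called in the libraries labelled gpt2-1 stayed at 0 higher and 8 to 9 lower whichever library was left out. In HCT-RNAi they ran from 3 to 5 higher and 2 to 3 lower. There 7392 genes in all were called when genes with exons on the opposite strand were left out, against 11167 out of more genes tested. In 35S GPT2 the members called higher ran from 1 to 4 with a library left out and all genes called from 110 to 674, against 462; DESeq2 called 947 genes, the replicate block 1103 and the labels as deposited 0, with 0 members called. For the difference between 35S GPT2 and the libraries labelled gpt2-1, leaving out a library gave 3642 to 5919 genes, 6 to 8 members higher and 0 to 1 lower, and the labels as deposited 0 genes and 0 members. For that against HCT-RNAi, it gave 3132 to 5366 genes, 4 to 5 members higher and 1 to 2 lower. The labels as deposited gave 129 genes and 0 members in either direction. Leaving out overlapping genes gave 2180 genes, out of fewer tested.

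Signs turned with the labels as deposited in EXPA8 (-0.80) and EXPA11 (-0.62) for 35S GPT2, in EXPA15 (11.73) for the difference from gpt2-1, and in EXPA6 (10.21), EXPA11 (-0.88) and EXPA15 (10.34) for that from HCT-RNAi. Library totals turned EXPA16 in gpt2-1 (-0.13) and EXPA15 in the difference from gpt2-1 (0.073), and moved the median of all genes by 0.214 for HCT-RNAi against gpt2-1 and 0.227 for that difference. With a library left out, EXPA11 in HCT-RNAi ran from -0.17 to 0.37, EXPA6 in 35S GPT2 from -0.044 to 0.23 and EXPA16 in 35S GPT2 from -1.18 to 0.12; none of these was called with all libraries. In trial 1 samples with the same number did not deviate together (r from -0.0534 to 0.0139). In trial 2 the replicate block moved EXPA5 to 1.86 (adjusted p = 0.0497) and changed no other call of a member. The causes were not tested. The shallowest library of trial 2 counts in steps of 0.261 CPM, which limits the precision of EXPA3 and EXPA16 there.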

Other observations

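Of the daily clock, 9 genes, a list chosen after the data were seen, also differed between groups. In the libraries labelled gpt2-1, 3 rose and 6 fell, among them LHY (1.27, SE 0.05, edgeR adjusted p = 6.15e-18), CCA1 (0.60, SE 0.04, adjusted p = 2.74e-12) and PRR5 (-2.96, SE 0.08, adjusted p = 4.22e-22). PRR5 stood at 5.39 ± 0.39 CPM there and at 41.8 ± 2.84 CPM in Col0_1 (SD, n = 3). In HCT-RNAi 2 rose and 7 fell, among them CCA1 (-0.96, SE 0.05, adjusted p = 3.64e-16) and LHY (-0.68, SE 0.06, adjusted p = 1.06e-10), so that these morning genes moved in opposite directions in the lines of trial 1. In 35S GPT2 0 of 9 passed by edgeR, with 0 higher and 1 lower at an unadjusted p under 0.05. The part of the clock in the expansin results was not tested.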
